A study of Mus musculus with 10 samples.

Results

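The genes described here are 36 markers of hepatic stellate cells and of the extracellular matrix that these cells and other fibroblasts lay down. They were chosen by symbol from a table of 47729 genes, and all 36 were found in it. The table holds liver RNA of female mice of the Etnppl KO genotype, which lack Etnppl throughout the body, and of Etnppl WT females (5 libraries each). Etnppl encodes ethanolamine-phosphate phospho-lyase, which breaks down phosphoethanolamine. Chow was given to both groups for 8 weeks, followed by 10 weeks on high-fat food (45% of energy from fat). Neither diet nor sex varied. The sources do not say which stretch of Etnppl was deleted, the strain, or whether each library came from its own animal. The p-values therefore set the difference between genotypes only against the scatter between libraries, which may be technical.

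Stellate cells lie between the liver sinusoids and the hepatocytes and store vitamin A as retinyl esters. In chronic injury, fatty liver disease included, they can turn into contractile myofibroblasts that secrete collagen, and transforming growth factor beta and platelet-derived growth factor are the best known signals for that change. The comparison therefore shows whether RNAs of the resting cell, of the myofibroblast and of the matrix differed between the genotypes after the high-fat diet.

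No gene of the set passed the test. Of the 36 genes, 33 had a mean of at least 0.5 FPKM (fragments scaled to transcript length and to the library's mapped total) and were tested with limma among 12395 genes. None had a Benjamini-Hochberg adjusted p below 0.05, against 8 genes (0.0645%) among all genes tested, and the smallest adjusted p in the set was 0.233, for Tgfbr1. At an unadjusted p under 0.05, 1 gene was lower in KO, the transforming growth factor receptor Tgfbr1 (3.03% of those tested, against 9.07% of all genes), and 1 was higher, the fibronectin gene Fn1 (3.03%, against 2.69% of all genes). Fold changes are KO over WT, of FPKM + 0.5. For 30 of the 33 genes the 95% confidence interval (CI) of this fold change lay inside a 1.5-fold difference in either direction. The exceptions were Col3a1, Col5a2 and Acta2, and on that scale no estimate reached 1.5-fold. The added 0.5 shrinks fold changes, most of all for genes near or below 1 FPKM, such as Col1a1 (mean 0.816 FPKM) and Loxl1 (0.553 FPKM). For these the count does not show that a 1.5-fold change in FPKM is excluded. Nor does it for Tgfb1 (mean 9.85 FPKM), whose interval reached a log2 fold change of -0.579, barely inside that limit. Leaving out WT replicate 2, KO replicate 1 or KO replicate 3 also left 0 genes of the set past the adjusted threshold, while 18, 5 and 5 of all genes passed it. At an unadjusted p under 0.05, Col5a2 and Tgfbr1 were found without WT replicate 2, and Fn1, Lrat, Lum, Sparc and Tgfbr1 without KO replicate 3. These are 2 and 5 of the 33 genes, where 11.6% and 12% of all genes tested had such a p in the same refits, so neither count is a result about the set.

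Depth, read from the steps between low values, was 20900000 to 28300000 fragments per library. Etnppl lay between 7.36 and 10.19 in KO and between 27.57 and 56.55 FPKM in WT, so the 2 genotypes did not overlap for the deleted gene. Hepatocyte markers were by far the most abundant of the marker lists, at summed levels of 71759 to 82761 FPKM in WT and 77739 to 90117 in KO. Some libraries stood apart. WT replicate 2 gave the highest value of the 10 libraries for 22 of the 36 genes, and KO replicate 1 the lowest for 12. KO replicate 3 held pancreatic transcripts, with a summed level of 142.5 FPKM for 7 pancreas markers against 0.2 to 1.64 FPKM in the other libraries. Its fibrillar collagen sum was also the highest of the KO libraries, at 12.1 FPKM, and the part of pancreatic RNA in that value was not tested.

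**Figure D1:**
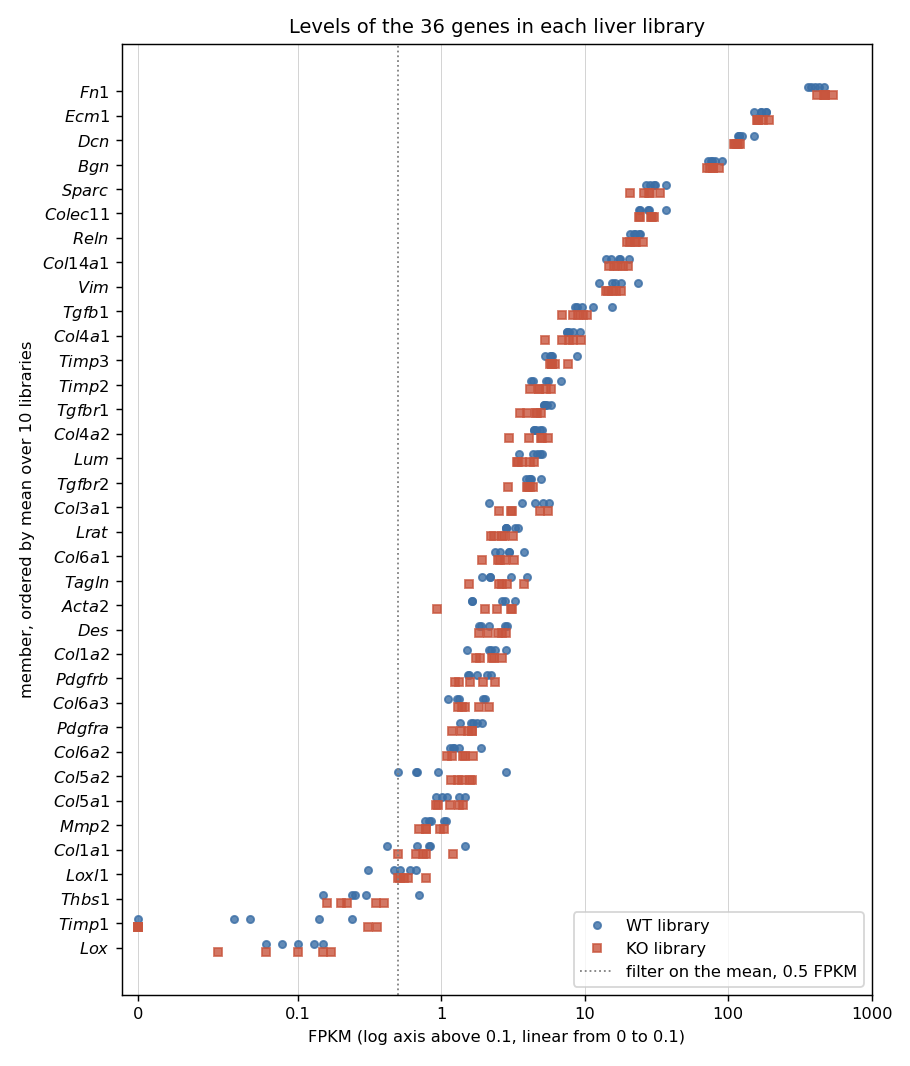
FPKM of each of the 36 genes (vertical axis, ordered by mean) in each WT library (circles) and KO library (squares), on a log axis above 0.1 FPKM. Fn1, Ecm1 and Dcn lie above 100 FPKM, Thbs1, Timp1 and Lox fall below the filter of 0.5 FPKM, and WT and KO symbols of nearly every gene overlap.

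The levels, which FPKM makes comparable between genes per length, ran from 441 FPKM for Fn1 to 0.11 FPKM for Lox (means over the 10 libraries). At 100 FPKM or more stood 3 genes, 6 were between 10 and 100 FPKM, 21 between 1 and 10 FPKM, 3 between 0.5 and 1 FPKM and 3 under 0.5 FPKM. The resting stellate markers were well detected, with Reln at 22.5 FPKM, Colec11 at 27.9 FPKM and Lrat at 2.83 FPKM. The myofibroblast gene Acta2 was at 2.36 FPKM, near Lrat. The collagen genes ranged widely, from Col14a1 at 17.1 FPKM and Col4a1 at 7.83 FPKM through Col3a1 at 4.03 FPKM and Col1a2 at 2.20 FPKM to Col1a1 at 0.816 FPKM. The defining markers of the stellate cell were thus present in every library, while the inhibitor gene Timp1 (0.118 FPKM) and the crosslinking gene Lox were barely detected. Fn1, the most abundant member, is known to be made by hepatocytes as plasma fibronectin, so its level need not come from stellate cells. In such whole-tissue RNA, fewer cells of a type and less RNA per cell cannot be told apart.

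Type I collagen, the main fibre of scar tissue, is built from the chains of Col1a1 and Col1a2. Col1a1 (ENSMUSG00000001506, plus strand of chromosome 11, 94936224 to 94953042, GRCm38) was at 0.84, 1.47, 0.68, 0.83 and 0.42 FPKM in WT replicates 1 to 5 and at 0.5, 0.75, 1.22, 0.67 and 0.78 in KO replicates 1 to 5. WT replicate 2 and KO replicate 3 were the high libraries, WT replicate 5 and KO replicate 1 the low ones, and the groups overlapped fully. The log2 fold change was -0.05 (95% CI -0.48 to 0.38, limma adjusted p = 0.947). Col1a2 was at 2.37, 2.83, 2.23, 2.17 and 1.51 FPKM in WT and 1.74, 2.25, 2.67, 1.87 and 2.33 in KO, a log2 fold change of -0.02 (95% CI -0.33 to 0.29). The same libraries were high and low as for Col1a1.

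Col3a1, whose type III collagen forms the fine reticular fibres, was at 3.68, 5.62, 4.49, 5.16 and 2.15 FPKM in WT and 2.52, 3.06, 5.58, 3.1 and 4.9 in KO. The groups overlapped, with WT replicate 2 highest and WT replicate 5 lowest (log2 fold change -0.12, 95% CI -0.66 to 0.43). The type V collagen chains start and limit fibril growth. Of these, Col5a1 was at 0.92 to 1.47 FPKM in WT and 0.92 to 1.43 in KO (log2 fold change -0.01, 95% CI -0.30 to 0.28). For Col5a2 a single library set the result. It was at 0.95, 2.85, 0.68, 0.67 and 0.5 FPKM in WT and 1.64, 1.17, 1.32, 1.6 and 1.39 in KO, so that every KO library lay above every WT library except WT replicate 2, which was the highest of all. The log2 fold change was 0.39 (95% CI -0.20 to 0.98, limma adjusted p = 0.613). Without WT replicate 2 it was 0.69 (95% CI 0.39 to 0.98, unadjusted p = 0.000271, limma adjusted p = 0.0944), still short of the threshold.

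The network collagen of basement membranes is built from Col4a1 and Col4a2, which lie head to head on chromosome 8 (GRCm38), with 22 bases shared at their starts. Col4a1 was at 7.76, 9.26, 8.33, 7.57 and 7.59 FPKM in WT and 5.33, 6.91, 9.45, 8.32 and 7.8 in KO. The KO values spanned the WT range on both sides, with KO replicate 1 lowest and KO replicate 3 highest, and the log2 fold change was -0.11 (95% CI -0.39 to 0.16). Col4a2 had the same low and high libraries, at 4.44 to 5.08 FPKM in WT and 2.98 to 5.59 in KO (log2 fold change -0.07, 95% CI -0.36 to 0.22).

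Type VI collagen forms beaded microfibrils around cells, and type XIV collagen, from Col14a1, binds the surface of fibrils. Col6a3 was at 1.12, 2.01, 1.96, 1.33 and 1.3 FPKM in WT and 1.32, 1.46, 1.85, 1.41 and 2.16 in KO, and Col6a1 and Col6a2 ranged over 2.39 to 3.81 and 1.16 to 1.9 FPKM in WT and over 1.93 to 3.23 and 1.1 to 1.66 in KO. The groups overlapped for each of them. The log2 fold changes were 0.07 for Col6a3 (95% CI -0.26 to 0.41), -0.15 for Col6a1 (95% CI -0.44 to 0.14) and 0.00 for Col6a2 (95% CI -0.28 to 0.29). Col14a1 was the most abundant collagen gene of the set, at 17.59, 20.4, 15.35, 17.24 and 14.2 FPKM in WT and 14.78, 18.37, 20.21, 15.95 and 17.13 in KO. The groups overlapped (log2 fold change 0.03, 95% CI -0.20 to 0.26).

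Acta2, the smooth muscle actin by which myofibroblasts are recognised, was at 2.78, 3.26, 1.65, 2.64 and 1.63 FPKM in WT and 0.94, 3.12, 3.06, 2.47 and 2.01 in KO. KO replicate 1 was the lowest of all libraries, and the other KO values fell inside the WT range. The log2 fold change was -0.07, with an interval (95% CI -0.63 to 0.48) too wide to exclude a 1.5-fold fall. Tagln, an actin-binding protein of contractile cells, was at 1.94 to 3.98 FPKM in WT and 1.56 to 3.78 in KO (log2 fold change 0.00, 95% CI -0.44 to 0.44). Of its exon bases 5.43% are shared with Pcsk7 on the opposite strand, which had a mean of 8.35 FPKM, and 62.4% with the antisense gene Gm48529. The sources do not say whether reads were counted by strand. Des, the intermediate filament protein desmin of rodent stellate cells, was at 2.17, 2.87, 1.91, 2.8 and 1.84 FPKM in WT and 1.83, 2.49, 2.83, 2.64 and 2.12 in KO. Vim, the vimentin of mesenchymal cells in general, was at 12.68 to 23.44 FPKM in WT and 14.2 to 17.99 in KO. Neither differed beyond the spread (log2 fold changes 0.04 and -0.09). Markers of vascular smooth muscle, which also holds Acta2, Tagln and Des, summed to 15.2 to 20.8 FPKM in WT and 14.6 to 20.6 in KO. Its defining markers Myh11 and Cnn1 were at 0.44 to 1.52 and 0.06 to 0.45 FPKM in WT and at 0.52 to 1.07 and 0.04 to 0.49 in KO.

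The largest difference by p was in Tgfbr1, a receptor gene of transforming growth factor beta. This factor binds Tgfbr2, which then activates Tgfbr1, the kinase that phosphorylates the SMAD proteins. Tgfbr1 (ENSMUSG00000007613, plus strand of chromosome 4, 47353222 to 47414931, GRCm38) was at 5.22, 5.23, 5.26, 5.81 and 5.45 FPKM in WT and at 3.52, 4, 4.56, 4.99 and 4.63 in KO. Every KO library lay below every WT library, with KO replicate 1 lowest. The fold change was 0.817 (log2 -0.29, 95% CI -0.49 to -0.09, unadjusted p = 0.00831, limma adjusted p = 0.233), and an exact permutation test (two-sided) returned p = 0.00794 without correction, which is the minimum for groups of 5 and 5. Among all genes tested, 2.21% were lower in KO without overlap and 0.581% were higher. In the set 1 gene of 33 (3.03%) was lower and 0 were higher, near the background. In 22 refits with other settings or 1 library left out, the unadjusted p was under 0.05 and the adjusted p above 0.05 each time, with log2 fold changes of -0.34 to -0.23.

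Its partner Tgfbr2 was at 4.15, 4.98, 3.88, 4.21 and 4.1 FPKM in WT and 2.92, 4.01, 3.94, 4.38 and 4.14 in KO. Apart from KO replicate 1 the groups overlapped, and the log2 fold change was -0.13 (95% CI -0.36 to 0.10). The ligand gene Tgfb1 was at 11.48, 15.47, 9.66, 8.82 and 8.57 FPKM in WT and 6.97, 9.78, 9.06, 8.28 and 10.37 in KO. The WT mean was raised by WT replicate 2, and the log2 fold change moved from -0.25 (95% CI -0.58 to 0.09) to -0.11 without that library. The receptors of platelet-derived growth factor, Pdgfra and Pdgfrb, carry the main growth signal of stellate cells. Pdgfra was at 1.35, 1.93, 1.77, 1.67 and 1.61 FPKM in WT and 1.38, 1.19, 1.64, 1.54 and 1.64 in KO. Pdgfrb was at 1.79, 2.23, 1.54, 2.09 and 1.56 FPKM in WT and 1.26, 1.34, 1.96, 1.59 and 2.36 in KO. Both overlapped between the genotypes (log2 fold changes -0.13 and -0.10). Each of the 5 genes of this group had a lower estimate in KO, as had 65.1% of all genes tested.

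Promoter sequences were found for 24 of the 36 genes in RefSeq (GRCm38.p6), and 4 are shown: those of the paired receptors Tgfbr1 and Tgfbr2, since only the first had separate groups, and those of Col3a1 and Reln, the lowest and highest of the set in G and C content. Each line gives the 250 bases before the start, and capitals mark matches on either strand. The GC box was searched as GGGCGG. The CCAAT box was searched by the letters of its name. For the TATA box the letters were TATAAA. The regions are chr4:47352972-47353221 (plus strand), chr9:116175364-116175613 (minus strand), chr1:45311288-45311537 (plus strand) and chr5:22344706-22344955 (minus strand).
Tgfbr1: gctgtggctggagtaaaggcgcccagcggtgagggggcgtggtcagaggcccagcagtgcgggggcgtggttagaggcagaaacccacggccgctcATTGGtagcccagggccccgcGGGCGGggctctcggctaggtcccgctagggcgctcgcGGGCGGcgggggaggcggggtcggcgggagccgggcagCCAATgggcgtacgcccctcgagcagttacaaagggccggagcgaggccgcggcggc
Tgfbr2: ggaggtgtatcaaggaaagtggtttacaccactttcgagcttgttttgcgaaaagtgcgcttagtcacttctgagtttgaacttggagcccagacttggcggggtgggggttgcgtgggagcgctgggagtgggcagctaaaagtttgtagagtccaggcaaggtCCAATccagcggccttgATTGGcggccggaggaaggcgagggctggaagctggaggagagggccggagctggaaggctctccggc
Col3a1: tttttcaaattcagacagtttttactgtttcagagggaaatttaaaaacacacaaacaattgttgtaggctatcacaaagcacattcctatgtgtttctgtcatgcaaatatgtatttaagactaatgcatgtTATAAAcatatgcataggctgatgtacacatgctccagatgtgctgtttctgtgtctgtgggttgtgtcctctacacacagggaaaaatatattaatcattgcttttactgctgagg
Reln: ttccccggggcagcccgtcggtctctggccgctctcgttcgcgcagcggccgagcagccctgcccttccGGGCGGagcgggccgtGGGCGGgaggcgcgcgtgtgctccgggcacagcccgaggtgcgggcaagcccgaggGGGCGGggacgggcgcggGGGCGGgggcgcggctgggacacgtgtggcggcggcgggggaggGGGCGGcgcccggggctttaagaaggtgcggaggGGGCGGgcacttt
The Tgfbr1 window holds 2 GC boxes and 2 CCAAT boxes, and that of Tgfbr2 2 CCAAT boxes and no GC box. The Col3a1 window, at 35.2% G and C, holds the TATA box letters 117 bases before the start. This is a match of letters, and whether it serves as a TATA box was not tested. The Reln window, at 80.0%, holds 6 GC boxes. The short SMAD-binding sequence CAGAC, searched on both strands and left in lower case, occurs in the windows of Tgfbr2 and Col3a1 and not in those of Tgfbr1 and Reln shown here. Over the set, 15 of 26 promoter entries (57.7%) held a GC box, against 32.7% of 32851 entries for all genes. A CCAAT box was in 34.6% against 33.8%, a TATA box in 11.5% against 12.4%, and the SMAD-binding sequence in 13 of the 26 against 13861 of all entries, the latter being 42.2%. The median G and C content of the windows was 60.5% for the set and 52.4% for all entries.

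**Figure D2:**
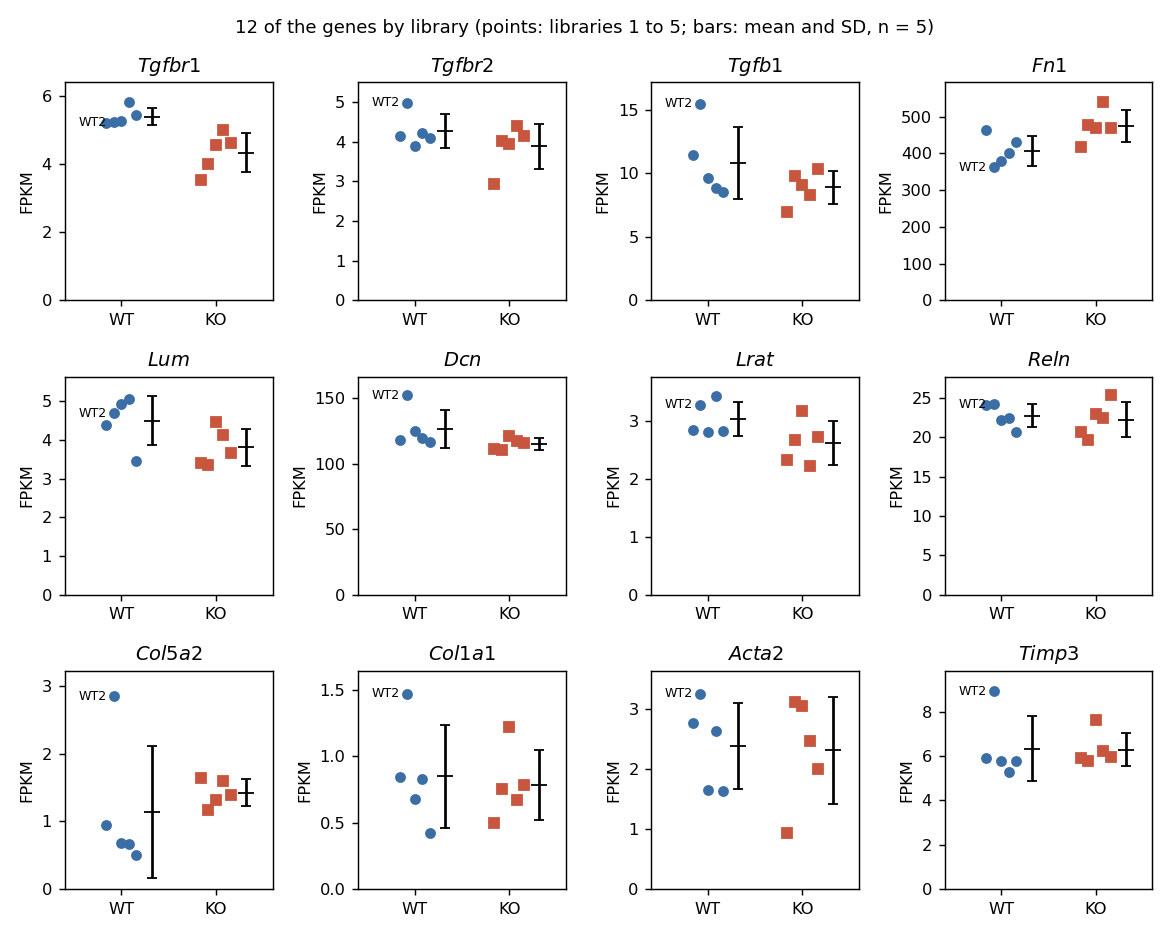
FPKM of 12 of the genes in the WT (circles) and KO (squares) libraries, with mean and SD (n = 5 each) beside the points and WT replicate 2 named. Tgfbr1 is the panel without overlap. WT replicate 2 is the top point of the WT group for Col5a2, Col1a1, Timp3, Dcn, Tgfb1, Tgfbr2, Acta2 and Reln.

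Matrix turnover depends on metalloproteinases such as gelatinase A, from Mmp2, and on their tissue inhibitors. Timp1, the inhibitor most often raised in fibrosis, was at 0.06, 0.24, 0.14, 0.07 and 0 FPKM in WT and 0, 0, 0.31, 0.36 and 0 in KO. At these depths its values stand for 0 to about 6 fragments per library, so a difference of the sizes discussed here was not detectable. Timp2 was at 4.24 to 6.82 FPKM in WT and 4.18 to 5.81 in KO (log2 fold change -0.06), and Timp3, which stays bound to the matrix, was at 5.26 to 8.91 FPKM in WT and 5.76 to 7.62 in KO (log2 fold change 0.01). Of the exon bases of Timp3, 21.3% are shared with Syn3 on the opposite strand, a gene at a mean of 0.386 FPKM. Mmp2 was at 0.85, 1.05, 0.77, 1.09 and 0.83 FPKM in WT and 0.79, 1.05, 0.98, 0.7 and 0.78 in KO (log2 fold change -0.06, 95% CI -0.32 to 0.20). The crosslinking enzymes were scarcer still. Lox was at 0.08 to 0.15 FPKM in WT and 0.05 to 0.17 in KO, about 6 to 17 fragments per library, and Loxl1 was at 0.31 to 0.67 FPKM in WT and 0.5 to 0.79 in KO (log2 fold change 0.11, 95% CI -0.18 to 0.39).

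The small leucine-rich proteoglycans decorin (Dcn), lumican (Lum) and biglycan (Bgn) coat collagen fibrils. Dcn was at 118.5, 152.23, 125.4, 119.4 and 116.95 FPKM in WT and 111.59, 110.38, 120.96, 117.39 and 115.98 in KO. WT replicate 2 lay far above the rest, and the log2 fold change of -0.13 (95% CI -0.29 to 0.04) was -0.06 without it. Lum was at 4.39, 4.69, 4.92, 5.05 and 3.47 FPKM in WT and 3.41, 3.36, 4.46, 4.14 and 3.67 in KO. Its WT values were mostly the higher ones, but WT replicate 5 fell among the KO values and KO replicate 3 lay above WT replicate 1. The log2 fold change was -0.21 (95% CI -0.46 to 0.03, limma adjusted p = 0.473). Bgn was at 72.97 to 91.27 FPKM in WT and 71.53 to 86.84 in KO, a log2 fold change of -0.03 whose interval (95% CI -0.19 to 0.13) was among the narrowest of the set. Sparc, the collagen-binding osteonectin, was at 30.24, 36.81, 28.58, 30.74 and 26.87 FPKM in WT and 20.59, 28.06, 33.49, 25.99 and 28.61 in KO (log2 fold change -0.17, 95% CI -0.43 to 0.08). Here too WT replicate 2 was highest and KO replicate 1 lowest.

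Thrombospondin 1, from Thbs1, can release transforming growth factor beta from its latent form. Thbs1 was at 0.3, 0.7, 0.25, 0.24 and 0.15 FPKM in WT and 0.22, 0.16, 0.35, 0.2 and 0.4 in KO, under the filter on the mean. Fn1 was the 1 gene of the set that went the other way at an unadjusted p under 0.05. It was at 463.21, 362.02, 378.81, 402.32 and 432.2 FPKM in WT and 417.14, 476.1, 468.94, 540.59 and 470.46 in KO. The KO values were higher except in KO replicate 1, which fell inside the WT range. The fold change was 1.16 (log2 0.22, 95% CI 0.04 to 0.40, unadjusted p = 0.0212, limma adjusted p = 0.312), and by exact permutation p was 0.0476. Without WT replicate 2 the unadjusted p was 0.0523. In the hepatocyte list 9 of 12 tested markers were also higher in KO (median log2 fold change 0.13), where 65.1% of all genes tested were lower. Of the 12, 3 were higher at a limma unadjusted p under 0.05, against 2.69% of all genes tested, and none passed the adjusted threshold. The part of hepatocytes in the Fn1 value was not tested.

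Among the genes that mark the stellate cell itself, Lrat makes the retinyl esters of its lipid droplets. Lrat was at 2.84, 3.28, 2.82, 3.43 and 2.83 FPKM in WT and 2.33, 2.67, 3.17, 2.22 and 2.73 in KO. Only KO replicate 3 exceeded the lowest WT library, and the log2 fold change was -0.18 (95% CI -0.41 to 0.04, limma adjusted p = 0.512). Reln encodes the secreted protein reelin. It was at 24.04, 24.16, 22.16, 22.49 and 20.65 FPKM in WT and 20.71, 19.6, 22.88, 22.48 and 25.35 in KO (log2 fold change -0.03, 95% CI -0.20 to 0.13). Ecm1, a secreted matrix protein, was at 170.37, 183.11, 169.84, 182.79 and 152.4 FPKM in WT and 162.58, 193.14, 159.47, 161.87 and 174.19 in KO. Its log2 fold change of -0.01 had a 95% CI of -0.17 to 0.14, the narrowest in the set. Ecm1 averaged 171 FPKM over the 10 libraries, against 2.83 FPKM for Lrat, and the cells its RNA came from were not tested. Colec11, a collectin of innate immunity, was at 27.83, 36.72, 24.46, 28.16 and 24.12 FPKM in WT and 24.47, 30.65, 29.39, 23.96 and 28.84 in KO (log2 fold change -0.03, 95% CI -0.28 to 0.21).

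**Figure D3:**
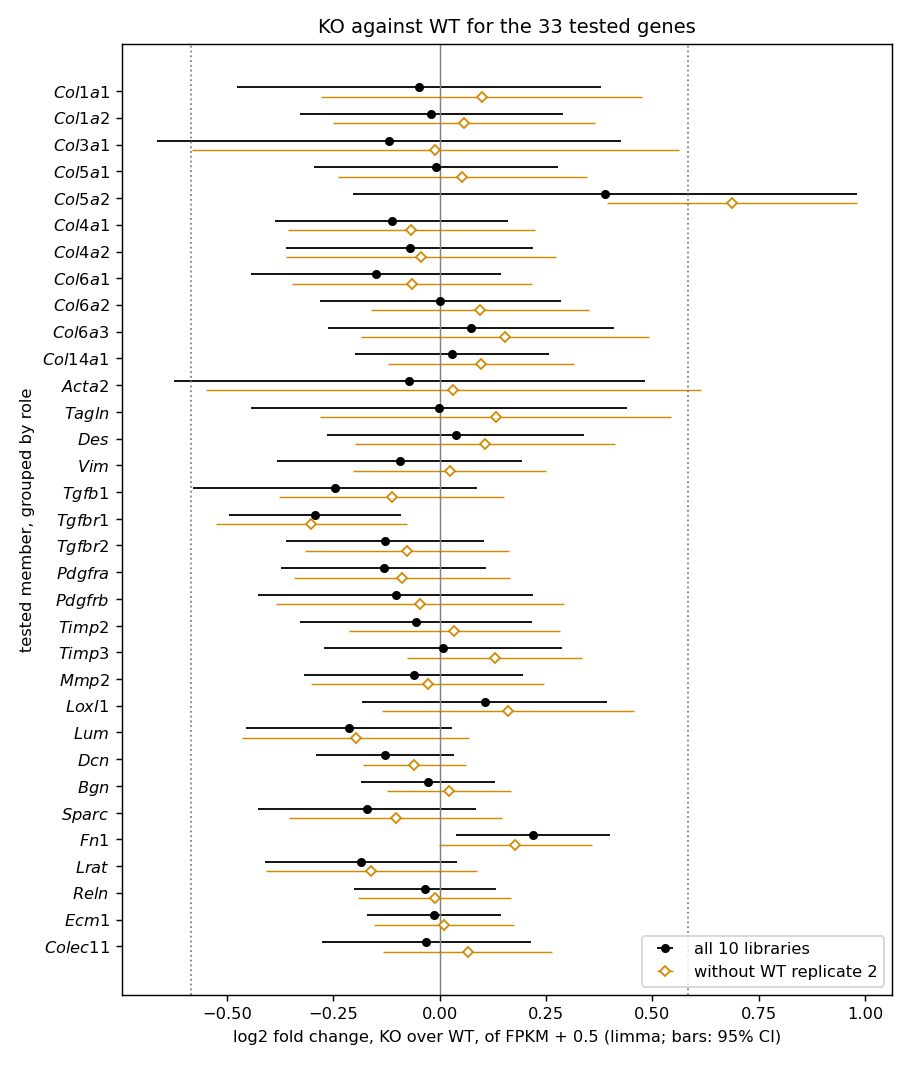
Log2 fold change (KO over WT, limma, bars 95% CI) of the 33 tested genes with all 10 libraries (filled) and without WT replicate 2 (open), with dotted lines at 1.5-fold. With all libraries the intervals of Tgfbr1 and Fn1 exclude 0, and leaving out WT replicate 2 moves most estimates to the right and Col5a2 to 0.69.

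As a set, 25 of the 33 tested genes (75.8%) had a lower estimate in KO, against 65.1% of all genes tested, and the median log2 fold change was -0.06 against -0.05. The split changed with the scaling and with single libraries. With median-of-ratios scaling, which sets the median of all genes close to 0, 18 genes (54.5%) were lower and 15 higher, a median of -0.02, against 51.1% of all genes lower. Without WT replicate 2, 15 (45.5%) were lower and the median was 0.02, against 62.1% and -0.04 for all genes. Without KO replicate 1, 16 (48.5%) were lower and the median was 0.00, against 57.7% and -0.03 for all genes. Estimates kept their sign in all refits for 16 of the 33 genes.

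Single libraries stood out across the set. WT replicate 2 held the highest value for 21 of the 33 tested genes (63.6%), against 19.2% of all genes tested, and KO replicate 1 the lowest for 12 (36.4%), against 26.2%. The summed FPKM of the 5 fibrillar collagens ran from 5.6 to 14.24 in WT, with WT replicate 5 lowest and WT replicate 2 highest, and from 7.35 to 12.13 in KO. The median coefficient of variation of the tested genes within WT was 18.0%, against 12.1% for all genes tested, and without WT replicate 2 it was 11.2% against 11.1%. Within KO it was 15% against 12.9%. Lymphocyte markers were also highest in WT replicate 2, for 8 of 12 markers and with a sum of 23.9 FPKM against 12.3 to 17.8 FPKM in the other WT libraries and 13.1 to 15.8 in KO. Erythroid markers summed to 788.99 FPKM there and to 433.66 to 597.41 FPKM elsewhere. The 9 portal fibroblast markers summed to 28.9 FPKM in WT replicate 2, within the range of the other WT libraries (27.9 to 30.9 FPKM), although that library was the highest for 6 of the 9. Most of the sum is Gas6, at a mean of 21.4 FPKM in WT and 16.2 in KO (log2 fold change -0.41, limma unadjusted p = 0.00934, limma adjusted p = 0.243). The 9 markers summed to 17.3 to 28.2 in KO, lowest in KO replicate 1. The mesothelial markers in that list, Msln and Upk3b, were at 0.02 to 0.6 FPKM throughout. The part of these cells in the values of the set was not tested.

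**Figure D4:**
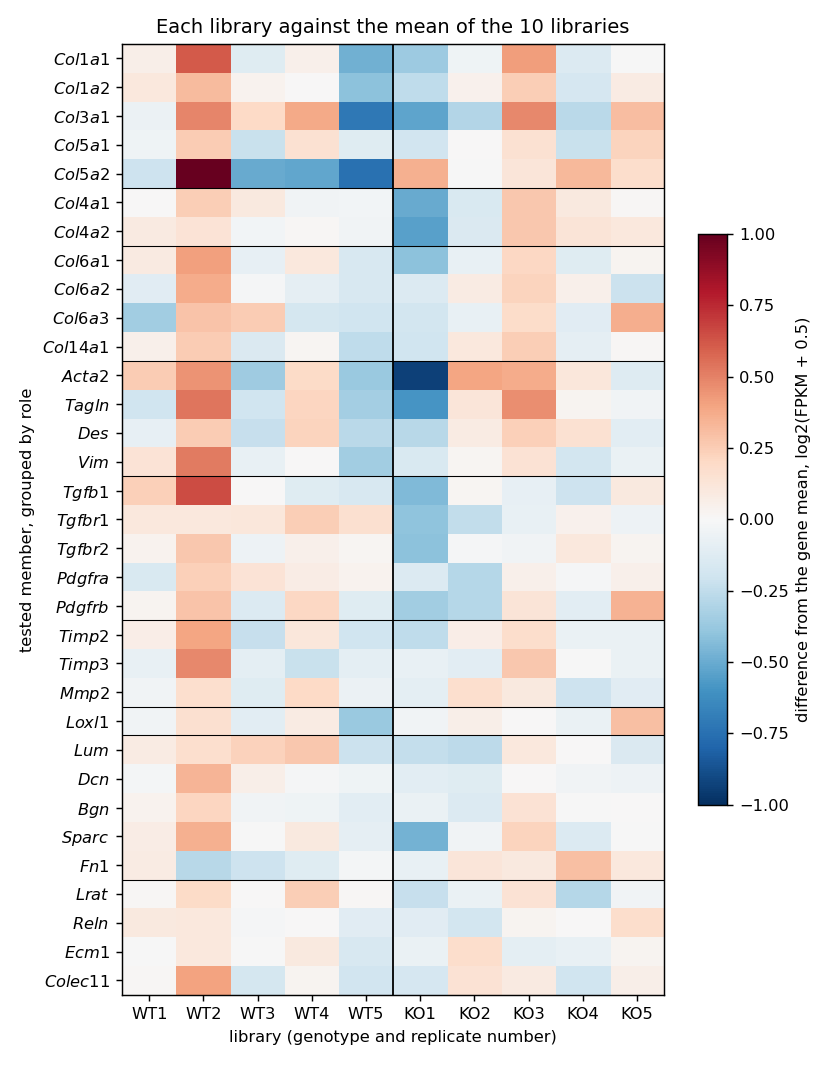
Difference of each library from the mean of the 10 libraries on the log2(FPKM + 0.5) scale, for the 33 tested genes (rows, grouped by role) in WT and KO libraries (columns, separated by the line). The column of WT replicate 2 is red for most rows, though not for Fn1, and that of KO replicate 1 is blue for most.

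Some genes whose products work together varied together across the 10 libraries. Pairs of genes without such a link were not compared, so whether this was particular to partners was not tested. Of 7 pairs compared, Col1a1 and Col1a2 had a Pearson r of 0.937 (permutation p = 0.00022, adjusted p = 0.00077) and a Spearman rho of 0.927 (permutation p = 0.00033, adjusted p = 0.00231). Without 2 libraries r was 0.896. For each pair, the 2 libraries left out were those farthest from the median of the first gene named, whatever the values of the second. Leaving them out narrows the range of that gene, which by itself can lower r. Col4a1 and Col4a2 had an r of 0.945 (permutation p = 0.00022, adjusted p = 0.00077) and a rho of 0.855 (permutation p = 0.00287, adjusted p = 0.00502), with r at 0.73 without KO replicates 1 and 3. For the contractile pair Acta2 and Tagln, r was 0.862 (permutation p = 0.00084, adjusted p = 0.00196), rho 0.857 (permutation p = 0.00261, adjusted p = 0.00502) and r without 2 libraries 0.704. Col1a2 was above Col1a1 in every library, by 1.93 to 3.6 times in FPKM, with means of 2.85 times in WT and 2.89 times in KO. Col4a1 was above Col4a2 in every library, by 1.57 to 1.86 times.

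In the remaining pairs r was lower. For Lum and Dcn, neighbours on chromosome 10 with 47.0 kb between them, r was 0.602 (permutation p = 0.0274, adjusted p = 0.0385) and rho 0.903 (permutation p = 0.00087, adjusted p = 0.00304). Without KO replicates 1 and 2, chosen by Lum, r was 0.437. WT replicate 2, far above the rest for Dcn, was kept there. For Tgfbr1 and Tgfbr2, r was 0.71 (permutation p = 0.0275, adjusted p = 0.0385) and rho 0.455 (permutation p = 0.189, adjusted p = 0.221). Without KO replicates 1 and 2, chosen by Tgfbr1, r was 0.176. Within WT alone r was -0.171 and within KO alone 0.894, so the r over all libraries also holds the difference between the genotypes. For Col6a1 and Col6a2, r was 0.651 (permutation p = 0.0421, adjusted p = 0.0492) and rho 0.539 (permutation p = 0.114, adjusted p = 0.159), and r was 0.268 without WT replicate 2 and KO replicate 1. Col3a1 and Col5a2, neighbours on chromosome 1 with 24.6 kb between them, showed no clear relation (r = 0.286, permutation p = 0.422, adjusted p = 0.422, with rho = 0.248, permutation p = 0.492, adjusted p = 0.492). Without WT replicate 5 and KO replicate 1, chosen by Col3a1, r was 0.155. WT replicate 2, the far library for Col5a2, was kept there. All pairs share the libraries and their scaling, and the pairs were chosen with the values known. WT replicate 2 and KO replicate 1 stood apart across the set, and their part in these correlations was not tested.

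**Figure D5:**
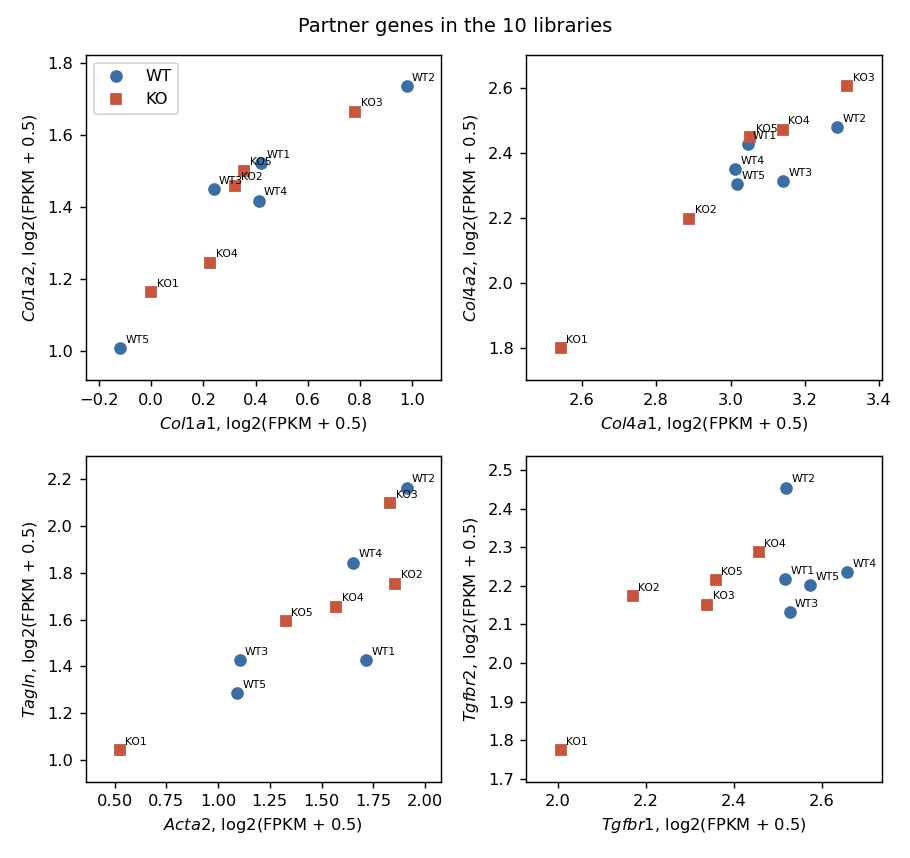
Log2(FPKM + 0.5) of 4 pairs of partner genes in the 10 libraries, WT as circles and KO as squares, each labelled. For Col1a1 with Col1a2, Col4a1 with Col4a2 and Acta2 with Tagln the libraries of both genotypes follow the same rising line, and for Tgfbr1 with Tgfbr2 the KO libraries lie to the left of the WT libraries.

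Other genes of the same pathways were counted by list. None of the genes in 6 further lists passed the adjusted threshold. In collagen processing, 6 of 18 tested genes were higher and 12 lower (median log2 fold change -0.08). Bmp1, the proteinase that trims procollagen, was at 31.0 ± 1.86 FPKM in WT and 33.96 ± 1.996 in KO. Values here and for the lists that follow are means ± SD with n = 5 in either genotype. The hydroxylase subunits P4hb and P4ha1 were at 444 ± 31.3 and 3.53 ± 0.765 FPKM in WT and 404 ± 44.4 and 3.01 ± 0.406 in KO. In other matrix proteins, 12 of 30 were higher and 18 lower (median -0.03). Col18a1, the collagen from which endostatin is cut, was at 184 ± 13.4 FPKM in WT and 224 ± 18.6 in KO (limma adjusted p = 0.162). Lama5, a laminin chain, was at 0.552 ± 0.160 and 0.928 ± 0.0756 FPKM without overlap (limma adjusted p = 0.184), and the basement membrane gene Nid1 at 5.35 ± 0.978 and 4.24 ± 0.562 FPKM (limma adjusted p = 0.364).

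In the transforming growth factor beta pathway, 7 of 18 tested genes were higher and 11 lower (median log2 fold change -0.08). The SMAD corepressor Ski was at 9.84 ± 1.10 FPKM in WT and 8.34 ± 1.24 in KO, and the matrix protein gene Tgfbi, named for its induction by the factor, at 23.4 ± 2.34 and 20.7 ± 1.67 FPKM. Of the 4 ligand genes of platelet-derived growth factor, 1 was higher and 3 lower, with Pdgfb at 0.788 ± 0.160 and 0.596 ± 0.119 FPKM, Pdgfc at 1.71 ± 0.347 and 1.48 ± 0.214 FPKM and Pdgfa at 3.26 ± 0.771 and 2.82 ± 0.736 FPKM. Of the other matrix proteases and inhibitors, 2 of 6 were higher and 4 lower. The macrophage elastase Mmp12 was at 1.79 ± 1.34 FPKM in WT and 0.616 ± 0.44 in KO (log2 fold change -0.91, 95% CI -1.85 to 0.03), Adamts1 at 4.09 ± 0.968 and 3.44 ± 0.448 FPKM and Mmp19 at 18.3 ± 2.59 and 19.4 ± 1.86 FPKM.

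The list of other stellate markers had 17 tested genes, 6 higher and 11 lower in KO, with a median log2 fold change of -0.12. None had a limma unadjusted p under 0.05, against 11.8% of all genes tested. The Wnt enhancer Rspo3 was at 3.996 ± 0.333 FPKM in WT and 3.37 ± 0.496 in KO, the pericyte gene Rgs5 at 19.7 ± 4.54 and 16.1 ± 1.604 FPKM and the peptide receptor gene Vipr1 at 10.4 ± 0.631 and 11.6 ± 1.02 FPKM. The transcription factors Lhx2 and Hand2, which mark stellate cells, were at 2.23 to 2.68 and 3.69 to 4.91 FPKM in WT and at 1.68 to 2.97 and 4.1 to 5.28 in KO. These values overlapped, as did those of Hgf, the hepatocyte growth factor gene, at 6.23 to 8.24 FPKM in WT and 5.26 to 8.26 in KO.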

How the data were processed

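The authors deposited FPKM per gene for 10 libraries of poly(A)-selected liver RNA, rounded to 2 decimals. The submitters' processing notes list mm10 and the tools RSEM, STAR, DESeq, DESeq2 and R 4.0.2 without their roles. Annotation and strand setting are not stated there. Columns were matched to samples by library name and grouped by genotype. FPKM are relative to each library's total, so abundant transcripts can shift the rest, and they carry no counts.

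The 12395 genes averaging 0.5 FPKM or more were fitted as log2(FPKM + 0.5) with limma 3.58.1 in R 4.3.3 (robust prior with a trend, Benjamini-Hochberg adjustment over all of them, two-sided, threshold 0.05), checked on simulated data. Fold changes on this scale understate those of low genes. Depth was fitted from genes with 1 annotated transcript of 350 to 1000 bases; 92.9% to 96.4% of the low values came within 0.1 fragment of a whole number. No libraries had repeated values: at most 0.839% were identical between 2 libraries. Coordinates are from GENCODE M21 (GRCm38, the assembly of mm10), promoters from RefSeq (GRCm38.p6). The members and lists were chosen with earlier results of these data known. Every member is named, with all values for 22 fixed members and any at an unadjusted p under 0.05, and from each further list the 3 genes of lowest p (1 of these is not reported here); Lhx2, Hand2, Hgf, Myh11, Cnn1, Gas6, Msln and Upk3b were added after their values were seen. The alternatives tried were other pseudocounts (0.1, 1), other filters (none, 0.1, 2 FPKM), median-of-ratios, fixed-sum (TPM), quantile and top-50-free scaling, plain priors, array weights, a replicate block, an adjusted p of 0.1 and each library left out. Plots used matplotlib 3.10.9 in Python 3.11.15.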

Additional observations from a re-analysis of the deposited data

Results flagged for a closer look

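In 72 groups of 5 libraries, 6 held a library far from the others by Dixon's test, which chance alone does in about 5% of groups; 6.41% of all tested genes had such a library in WT and 6.06% in KO. WT replicate 2 accounted for 5 of the 6, or 4 without Thbs1, which was under the filter and so outside those shares of tested genes. It was at 2.85 FPKM for Col5a2 (the other WT libraries at 0.5 to 0.95), 1.9 FPKM for Col6a2 (1.16 to 1.34), 8.91 FPKM for Timp3 (5.26 to 5.89), 152.23 FPKM for Dcn (116.95 to 125.4) and 0.7 FPKM for Thbs1 (0.15 to 0.3). Among all genes tested this library stood apart on the high side for 1.99%. KO replicate 3 was at 7.62 FPKM for Timp3 (5.76 to 6.21 in the other KO libraries). It is also the library with pancreatic transcripts, whose part in this value was not tested.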

How the results depend on the processing

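No gene of the set or of the 6 further lists passed an adjusted p of 0.05 under any of 22 refits, and none passed 0.1 with the reported settings. The lowest adjusted p in the set was 0.0944 (Col5a2 without WT replicate 2). The count over all genes, 8, was 5 with no filter, 5 with plain priors, 5 with the replicate block, 18 with array weights, 30 at an adjusted p of 0.1 and 4 to 18 with a library left out. Same-numbered libraries deviated together with correlations of -0.025 to 0.204, and 2 of 5 WT libraries matched their own number best. Values this weak do not show a pairing by replicate number, and they cannot exclude one. With the replicate block, 25 of the 33 genes were lower, as without it, and 0 passed. With 1 library left out, 15 to 29 of the 33 genes were lower in KO and 1 to 5 had an unadjusted p under 0.05; of all genes tested, 57.7% to 67.4% were lower and 10.2% to 12.4% had such a p. The 5 were Tgfbr1, Fn1, Lrat, Lum and Sparc, without KO replicate 3, where 12% of all genes had such a p. Fn1 had an unadjusted p under 0.05 in 19 of 22 refits. The log2 fold change crossed 0 in at least 1 refit for 17 genes, and the cause was not tested. With median-of-ratios scaling the values past 0 were 0.0254 for Bgn, 0.0231 for Col1a2, 0.0276 for Col5a1, 0.0211 for Colec11, 0.04 for Ecm1, 0.0175 for Reln, 0.0419 for Tagln. With quantile normalization the values past 0 were 0.0022 for Col1a1, 0.0407 for Col1a2, 0.0503 for Col5a1, 0.0059 for Colec11, 0.0113 for Reln, 0.0532 for Tagln. With array weights the values past 0 were 0.0389 for Acta2, 0.0081 for Bgn, 0.0479 for Col1a1, 0.0302 for Col1a2, 0.0198 for Col5a1, 0.0038 for Colec11, 0.11 for Tagln. With a fixed sum the values past 0 were 0.0079 for Tagln. Without the top 50 genes in the scaling the values past 0 were 0.002 for Col5a1, 0.0039 for Ecm1, 0.0121 for Tagln. With 1 library left out, log2 fold changes spanned -0.18 to 0.15 for Acta2, -0.066 to 0.0225 for Bgn, -0.0297 to 0.0972 for Col14a1, -0.18 to 0.0994 for Col1a1, -0.12 to 0.0581 for Col1a2, -0.15 to 0.0564 for Col4a2, -0.066 to 0.0534 for Col5a1, -0.0526 to 0.0956 for Col6a2, -0.0082 to 0.15 for Col6a3, -0.0828 to 0.0663 for Colec11, -0.025 to 0.11 for Des, -0.0591 to 0.0112 for Ecm1, -0.0824 to 0.0083 for Reln, -0.12 to 0.15 for Tagln, -0.12 to 0.0351 for Timp2, -0.058 to 0.13 for Timp3, -0.19 to 0.0235 for Vim. A filter of 2 FPKM left 24 genes of the set. At these depths Timp1 and Lox cannot be compared.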
